A study of Mus musculus with 14 samples.

Results

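The loss of Lnk in old haematopoietic stem cells (HSCs) was measured on 8 of the 14 arrays of the series, chosen by genotype and age in the sample labels. Bone marrow HSCs from wild-type mice (WT, 4 arrays) were compared with HSCs from Lnk-/- mice (4 arrays), all at 20 months of age. The sorted population was CD150+CD48- LSK, a surface pattern of long-term stem cells among marrow cells that carry Sca-1 and Kit and lack lineage markers, and the cells passed the sorter again before RNA was taken. WT and Lnk-/- HSCs at 2 months of age (3 arrays each) served to measure the genotype contrast on other arrays. The labels give no treatment, no sex, no strain background and no count of mice per array. Arrays are numbered there as biological replicates, and the spread between them is what the p-values rest on. In the Lnk-/- mice the gene is missing from every cell, so effects within the stem cell and effects of its surroundings cannot be told apart. All 20239 probe sets that name exactly 1 gene were described, of 21225 in the table.

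Lnk, encoded by Sh2b3, is an adaptor of the SH2B family. It binds the kinase JAK2 and cytokine receptors such as Kit, and it dampens the signal that runs from them through STAT5, ERK and AKT. Mice that lack Lnk are known for a larger stem cell pool. STAT5 switches on its own inhibitors, Cish and the Socs genes, so these transcripts are widely read as a sign of pathway activity. Old HSCs are known for a raised platelet and myeloid programme, with more Selp, Vwf, Clu and Slamf1 and less Flt3.

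Array medians of the 2 old groups lay between 5.06 and 5.14 log2 units. Pearson correlations across genes were 0.989 to 0.994 among WT arrays, 0.991 to 0.994 among Lnk-/- arrays and 0.987 to 0.994 between the genotypes. On the first principal component of the 8 arrays (27.2% of the variance) WT replicate 2 stood apart at 27.3, against -16.8 to 10.1 for the others. On the second (15.6%) the genotypes did not overlap. Kit lay between 10.52 and 10.75 on all 8 arrays, and Cd48, which the sort gates out, between 2.70 and 2.94. Xist, the RNA of the inactive X chromosome, read 9.70 and 8.47 on WT replicates 1 and 2 and 3.48 to 4.03 on the other 6 old arrays. The mean of the Y-linked genes Eif2s3y, Kdm5d and Uty was 6.33 and 7.06 on those WT arrays and 7.02 to 7.31 on the other 6. Thus Xist and Y-linked RNA occurred together on a pair of WT arrays and on no old Lnk-/- array. Sh2b3 and Pcdh7, described next, passed the test without every array that carried Xist (those 2 and 3 young ones), while Itpr2 and P2ry10 then had adjusted p = 0.0945 and 0.633 by limma. The Itpr2 difference was then 0.92 ± 0.13 log2 units, against 0.88 ± 0.09 with all arrays. Of the young arrays, WT replicate 1 and Lnk-/- replicates 1 and 2 carried Xist, at 9.89, 10.54 and 10.55. The Y-linked mean was 6.59 on that WT array, 3.06 and 3.00 on those Lnk-/- arrays and 6.99 to 7.22 on the other young arrays. The young genotype differences given below were thus taken between groups unlike in these markers. Without the arrays that carried Xist, young Lnk-/- replicate 3 was alone in its group.

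Sh2b3, the gene removed in the mutant, read 7.60, 7.40, 7.50 and 7.86 log2 units on the WT arrays. On the Lnk-/- arrays it read 5.25, 5.42, 4.98 and 5.09. Each mutant array lay far below each WT array, as the labels ask. The level fell by 2.40 ± 0.17 (SE, n = 4 and 4) log2 units to 18.9% of WT, with adjusted p = 2.91e-06 by limma with Benjamini-Hochberg adjustment over all genes. The two-sided exact permutation test gave p = 0.0286, the smallest that 4 against 4 arrays allow. At 2 months the difference was -2.46 ± 0.19. The exons that the probes cover, and those the Lnk-/- allele lacks, are not stated in the labels. The 10 measured genes on each side of Sh2b3 in the mouse gene order differed by -0.20 to 0.25, and none of the 20 passed the test (1 did at an unadjusted p under 0.05 by limma, Erp29 at 0.23).

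Beyond Sh2b3 itself, 3 genes passed the test in old HSCs. Of 20239 genes tested 4 were called at adjusted p under 0.05 (0.0198%), with 2 higher (0.00988%) and 2 lower (0.00988%) in Lnk-/- cells. The calcium release channel Itpr2 and the lipid receptor P2ry10 rose, and the adhesion protein Pcdh7 fell together with Sh2b3. The median difference over all genes was -0.00025 log2 units with a median SE of 0.10. With 1 array left out at a time 2 to 8 genes were called, with 8 without WT replicate 1. For 20079 genes (99.2%) the 95% interval of the difference lay within 1 log2 unit of 0, and 17 genes (0.084%) differed by more than that. At an unadjusted p under 0.05 there were 1017 genes (5.02%), with 558 higher (2.76%) and 459 lower (2.27%), and for 616 (3.04%) the old WT and old Lnk-/- arrays did not overlap.

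Itpr2, an inositol trisphosphate receptor that releases calcium from the endoplasmic reticulum, read 6.68, 6.75, 6.72 and 6.56 on the WT arrays and 7.74, 7.69, 7.37 and 7.45 on the Lnk-/- arrays. The groups were separated by a gap wider than the spread of the WT arrays. Itpr2 rose by 0.88 ± 0.09 (SE) log2 units, a fold of 1.84, with adjusted p = 0.00045 by limma. In young HSCs it also rose, by 0.68 ± 0.10 with adjusted p = 0.021.

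Pcdh7, a protocadherin of the cell surface, read 6.60, 7.11, 6.84 and 6.96 on the WT arrays and 5.78, 5.88, 5.71 and 5.95 on the Lnk-/- arrays. All mutant arrays lay below all WT arrays. Pcdh7 fell by 1.05 ± 0.16 log2 units, with adjusted p = 0.038 by limma. The young difference was -0.40 with adjusted p = 0.42. The call was lost without old WT replicate 2, 3 or 4, any 1 of the 4 old Lnk-/- arrays, any 1 of the 3 young WT arrays or young Lnk-/- replicate 1, with adjusted p between 0.060 and 0.146 by limma. The difference then stayed between -1.09 and -0.97.

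P2ry10, an X-linked receptor for lysophosphatidylserine, read 2.49, 2.68, 2.86 and 2.94 on the WT arrays and 3.80, 3.54, 3.31 and 3.36 on the Lnk-/- arrays. These are dim values, and the 2 WT arrays with Xist RNA were its lowest. P2ry10 rose by 0.76 ± 0.12 log2 units with adjusted p = 0.047 by limma, and the young difference was 0.47 with adjusted p = 0.26. The call held under 4 of 23 alternatives, and without the arrays that carried Xist the difference was 0.60. It was lost without old WT replicate 1, 2 or 3, old Lnk-/- replicate 1, 2 or 4, any 1 of the 3 young WT arrays or young Lnk-/- replicate 1 or 3 (adjusted p 0.072 to 0.189 by limma).

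**Figure D1:**
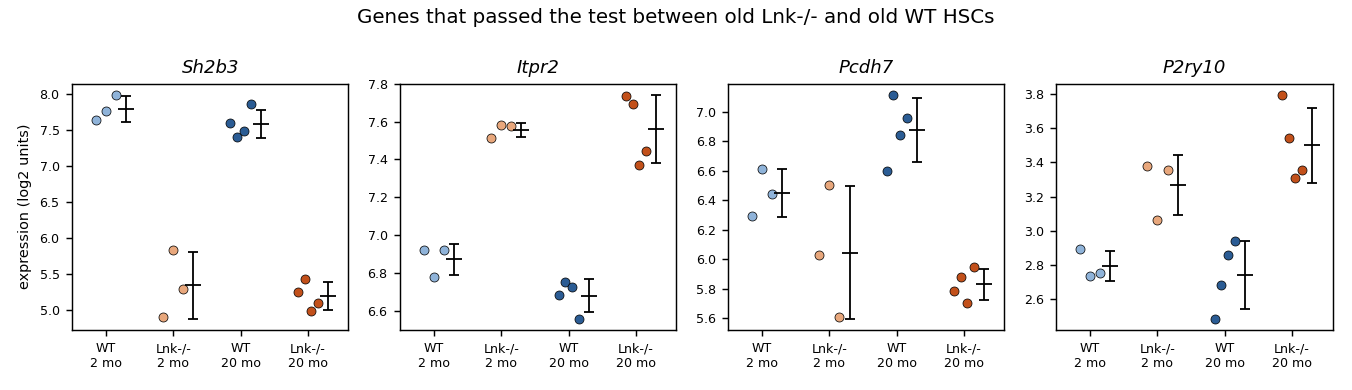
Expression in log2 units of the 4 genes that passed the test between old Lnk-/- and old WT HSCs, 1 point per array, for WT and Lnk-/- cells at 2 and 20 months (mo). Bars show the mean and SD of each group. At 20 months no Lnk-/- array overlaps a WT array for any of the 4 genes, a pattern that calling genes on these same arrays favours. Sh2b3 lies at 4.98 to 5.42 in Lnk-/- cells against 7.40 to 7.86 in WT cells.

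The 20 genes of smallest p were followed into the young arrays, which do not enter the old difference but share in the estimate of its error. Of these 20 genes 16 were higher and 4 lower in old Lnk-/- HSCs. For 19 the old arrays did not overlap, against 3.04% of all genes, which picking by small p on those same arrays favours. All 20 had the same sign at 2 months, against 53.4% of all genes. Sh2b3, whose sign the genotype sets at both ages, is among the 20. With only the 8 old arrays in the fit, 15 of these genes were again among the 20 of smallest p, and 18 of those 20 had the same sign at 2 months. Over all genes the old and young differences had a Pearson correlation of 0.119, a description across genes that are not independent. At 2 months 12 genes were called (0.0593%) and 2278 had an unadjusted p under 0.05 (11.3%). Sh2b3 and Itpr2 were called at both ages, which is 50% of the old calls and 16.7% of the young ones. The other 10 young calls differed by -0.34 to 0.77 in old cells.

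Among the 16 that follow the called genes in that order, none passed the test. The adhesion molecule Ncam2 read 4.75, 3.47, 4.00 and 3.76 on the WT arrays and 5.16, 5.43, 5.54 and 5.84 on the Lnk-/- arrays. Its difference was 1.498 ± 0.24 with adjusted p = 0.058 by limma, and 0.72 at 2 months. Without WT replicate 1, the highest WT array, Ncam2 was called at a difference of 1.75 (adjusted p = 0.0035), and it was also called without young Lnk-/- replicate 2 (adjusted p = 0.030). Without the arrays that carried Xist its difference was 1.61. Fitted on only the 8 old arrays, Ncam2 had adjusted p = 0.251 by limma.

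Slc17a8, a vesicular glutamate transporter, read 5.48, 4.09, 4.49 and 4.28 on the WT arrays and 5.82, 6.61, 5.77 and 6.79 on the Lnk-/- arrays. The difference was 1.66 ± 0.29 (adjusted p = 0.11), and 1.22 in young cells. Gimap3, a GTPase of the immunity-associated family known from lymphocytes, read 4.75, 3.79, 3.46 and 3.56 against 4.69, 5.46, 5.57 and 5.70. It was the 1 gene of the 20 whose old arrays overlapped, at WT replicate 1 and Lnk-/- replicate 1, and its difference was 1.47 with 0.79 at 2 months. Both genes were called without WT replicate 1, at 1.96 and 1.75 (adjusted p = 0.0049 for each). Gimap3 was called without Lnk-/- replicate 1 too, at 1.69 (adjusted p = 0.045). Fitted on only the 8 old arrays, Slc17a8 and Gimap3 had adjusted p = 0.455 and 0.516 by limma.

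The calcium-binding proteins S100a4 and S100a6 stood on the list together. S100a4 read 8.12, 8.41, 8.44 and 8.29 on the WT arrays and 8.94, 9.38, 8.83 and 9.15 on the Lnk-/- arrays, a difference of 0.76, with 0.07 at 2 months. S100a6 differed by 0.58 in old and 0.75 in young cells. Dhrs3, a reductase that turns retinaldehyde back into retinol, read 7.10, 7.63, 7.36 and 7.48 against 8.20, 8.47, 8.06 and 7.91. Its old difference was 0.77 (adjusted p = 0.17), while its young difference of 1.06 passed the test (adjusted p = 0.029). Tjp1, the tight junction scaffold ZO-1, read 6.31, 6.19, 5.97 and 6.84 on the WT arrays and 7.11, 7.53, 7.08 and 7.75 on the Lnk-/- arrays. Its difference was 1.04 in old and 0.62 in young cells, and it was called without WT replicate 4 at 1.21 (adjusted p = 0.044). With only the 8 old arrays in the fit Tjp1 had adjusted p = 0.455 by limma. Cd274, which encodes the checkpoint ligand PD-L1, read 7.954 to 7.995 on the WT arrays and 8.176 to 8.532 on the Lnk-/- arrays, a difference of 0.36, with 0.27 at 2 months. The membrane protease Fap and the deacetylase Hdac9 were lower, by -0.95 and -0.57, with -0.13 and -0.01 at 2 months. The remaining members were Dhx40 (0.58), Lratd2 (0.52), Cryge (0.37), Arhgap30 (0.55) and Epb41l4b (0.50).

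Trac, the constant segment of the T cell receptor alpha chain, had the largest positive difference of all genes. It read 5.54, 3.31, 4.26 and 3.04 on the WT arrays and 7.15, 6.39, 5.78 and 5.96 on the Lnk-/- arrays. The difference was 2.28 ± 0.45 with adjusted p = 0.17 by limma, and 0.36 at 2 months. Without WT replicate 1 it was 2.78 and called (adjusted p = 0.0049), and with any 1 array left out it ran from 1.95 to 2.78. With only the 8 old arrays in the fit Trac had adjusted p = 0.678 by limma. The T and NK cell marker list had a median difference of -0.044 over 25 measured genes. Its mean level was 3.98 to 4.11 in WT and 4.03 to 4.19 in Lnk-/- arrays. Of the 25 genes 2 had an unadjusted p under 0.05 by limma (8%, against 5.02% of all genes), both higher (2.76% of all genes). Nkg7 had the largest fall, at -0.52. The T cell receptor partners Cd3e, Cd3d and Cd3g differed by -0.16, -0.04 and 0.15, and the coreceptors Cd4 and Cd8a by 0.03 and -0.09. Cd3d lay at 2.71 to 2.96 on all 8 arrays. In these bulk samples a change in the number of cells of a type and a change in RNA per cell cannot be told apart. Thy1, a surface glycoprotein of T cells that some progenitors carry too, differed by 0.44 without overlap. At 2 months its difference was -0.60, also without overlap, and the interaction of 1.04 had adjusted p = 0.28 by limma.

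**Figure D2:**
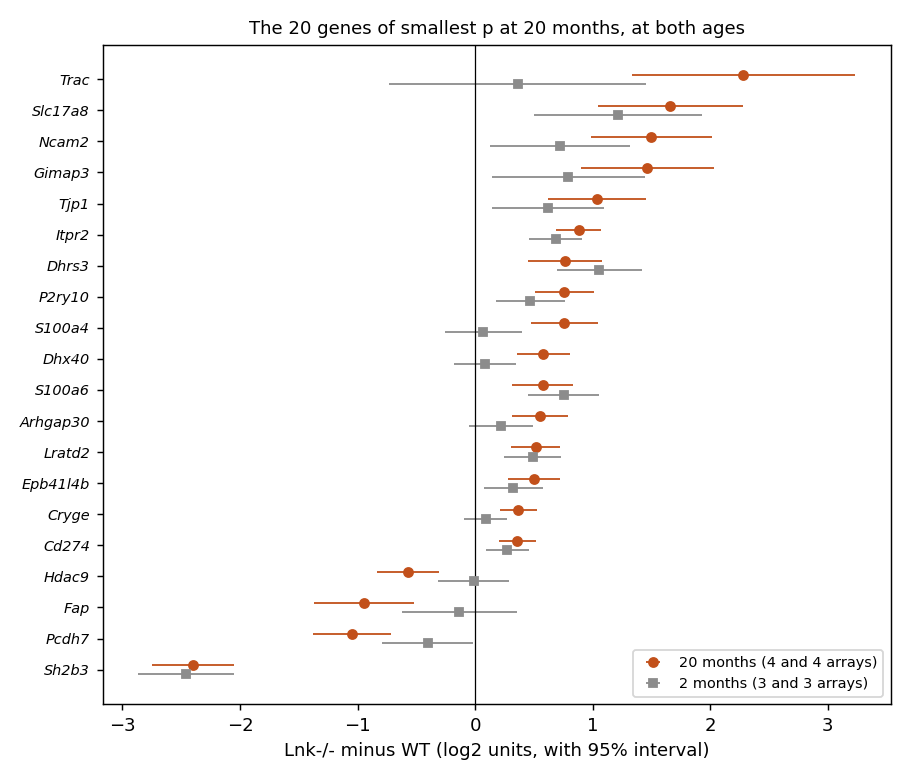
Difference between Lnk-/- and WT HSCs in log2 units for the 20 genes of smallest p at 20 months, with 95% intervals, at 20 months (orange circles, 4 and 4 arrays) and 2 months (grey squares, 3 and 3 arrays). All 20 genes lie on the same side of 0 at both ages, and Trac shows 2.28 at 20 months against 0.36 at 2 months.

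The pathway that Lnk restrains was described by role, from lists of 22 adaptors and kinases, 34 receptors and ligands, 25 inhibitors and 26 targets that were measured. Apart from Sh2b3 no member of these lists passed the test. Among the inhibitors 6 of 25 had an unadjusted p under 0.05 by limma, or 24.0% against 5.02% of all genes, with 3 in each direction and a median difference of -0.047. For the targets of STAT5 and STAT3 it was 5 of 26 (19.2%), with a median of -0.0018. Socs2 and Socs3 stand in both lists. Of the 36 lists described here, 23 had over 5% of their members at that p, among them lists outside this pathway such as lipid and retinoid metabolism (18.5%).

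Socs2, a STAT5-induced inhibitor of cytokine receptors, stood out by size. It read 7.62, 4.93, 6.27 and 6.77 on the old WT arrays and 7.56, 8.14, 7.89 and 8.67 on the old Lnk-/- arrays. The WT arrays spread over more than 2 log2 units, and WT replicate 1 lay above Lnk-/- replicate 1. The SD was 1.13 in old WT and 0.47 in old Lnk-/- cells, against 0.11 and 0.17 at 2 months. All of these enter the error given next. The difference was 1.67 ± 0.38 with adjusted p = 0.40 by limma, and 2.08 with adjusted p = 0.030 without WT replicate 1. Without WT replicate 2, the lowest array, it was 1.18 (adjusted p = 0.33), and over all alternatives the adjusted p ran from 0.030 to 0.904. At 2 months Socs2 read 7.990 to 8.195 in WT and 8.504 to 8.823 in Lnk-/- cells. The old WT arrays were all below these young values. Its interaction of genotype with age was 1.16 (adjusted p = 0.71).

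Socs3, the STAT3-induced inhibitor, read 5.64, 5.58, 5.53 and 5.14 on the WT arrays and 5.99, 6.07, 6.16 and 5.66 on the Lnk-/- arrays. The arrays did not overlap, and the difference was 0.50 with adjusted p = 0.75. At 2 months it was -0.23. Cish, the classical STAT5 target, read 8.41, 6.56, 7.63 and 7.82 against 7.40, 7.46, 7.78 and 7.48. Its mutant arrays lay inside the range of the WT arrays, and the difference of -0.07 had a 95% interval from -0.61 to 0.46. It was -0.42 without WT replicate 2 and 0.19 without WT replicate 1. The kinase Pim1, another STAT5 target, differed by 0.23 with an interval from -0.19 to 0.64. Socs1 differed by 0.04 and the anti-apoptotic Bcl2l1 by -0.22. The cell cycle regulators Ccnd1 and Myc differed by -0.48 and -0.17. The phosphatase Ptprc, known as CD45, read 8.85 to 9.09 on WT and 9.18 to 9.21 on Lnk-/- arrays, a difference of 0.18. Usp18, which blocks the interferon receptor, and the adaptor Dok2 differed by -0.41 and -0.42.

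Of the 22 adaptors and kinases 4 had an unadjusted p under 0.05 by limma (18.2%, against 5.02% of all genes). They were Sh2b1 (-0.19), Gab1 (-0.20), Shc1 (0.23), an adaptor that links receptors to Ras, and Sh2b3. The fall of Sh2b3 is set by the genotype, and it counts in that share. Jak2 read 7.96, 8.22, 8.02 and 8.01 on the WT arrays and 8.10, 8.04, 7.86 and 7.87 on the Lnk-/- arrays. Its difference was -0.08 with a 95% interval from -0.27 to 0.10. Stat5a and Stat5b differed by -0.11 and -0.05, Stat3 by 0.02 and Jak1 by -0.03. Sh2b1 and Sh2b2 are the relatives of Lnk, and Sh2b2 differed by -0.01. Of the receptors and ligands 5 of 34 had an unadjusted p under 0.05 by limma (14.7%, against 5.02% of all genes), all higher in Lnk-/- cells (2.76% of all genes). They were Osm (0.40), Csf2rb (0.50), Flt3 (0.38), Il10ra (0.54) and Ifnar2 (0.18). Osm, the cytokine oncostatin M and a STAT5 target, did not overlap at 4.87 to 5.15 against 5.21 to 5.66. Kit, the receptor for stem cell factor, differed by 0.07 with an interval from -0.05 to 0.19.

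Among 34 measured genes of MAPK and PI3K feedback 4 had an unadjusted p under 0.05 by limma (11.8%, against 5.02% of all genes), with 3 lower and 1 higher. Dusp6, a phosphatase induced by ERK that switches it off, read 7.80, 7.69, 7.68 and 7.90 on the WT arrays and 7.02, 7.42, 7.52 and 7.25 on the Lnk-/- arrays. The arrays did not overlap, and the difference was -0.47 with adjusted p = 0.81 by limma and 0.04 at 2 months. Spry4, another feedback inhibitor, differed by -0.57 and the ERK-induced factor Etv5 by -0.39. Dusp5 differed by 0.23 in the other direction. Of the 34 genes 14 lay above 0, and the median was -0.043.

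**Figure D3:**
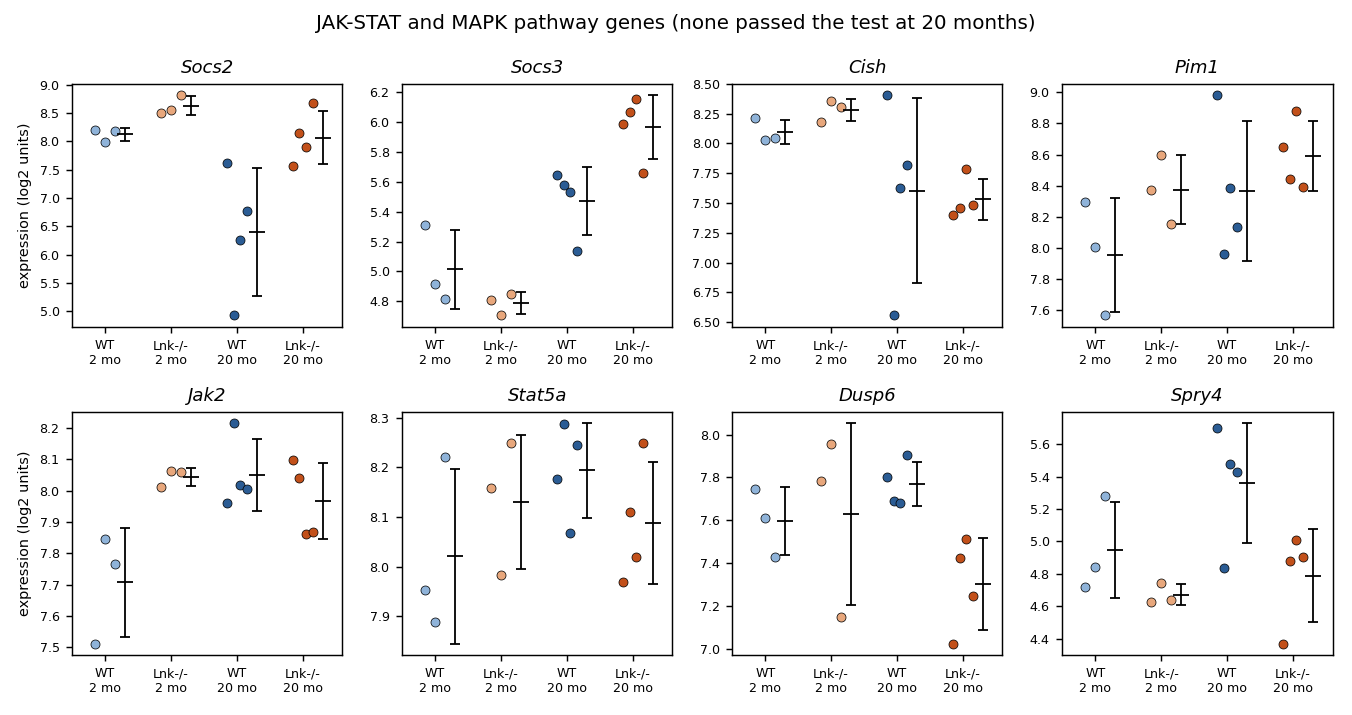
Expression in log2 units of 8 genes of the JAK-STAT and MAPK pathways, 1 point per array, with the mean and SD of each group, for WT and Lnk-/- HSCs at 2 and 20 months (mo). None passed the test at 20 months. Socs2 lies at 4.93 to 7.62 on old WT arrays and 7.56 to 8.67 on old Lnk-/- arrays, and Dusp6 at 7.68 to 7.90 against 7.02 to 7.52.

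The promoters of the STAT target list were searched for the STAT motif TTCNNNGAA, whose letters read the same on both strands, in the 250 bases before the transcription start (RefSeq, GRCm38.p6). Of 26 target genes 20 matched a promoter in the table used, and Socs2 and Osm were among those not searched. The motif occurred in 2 of these 20 genes (10%), against 2197 of 27025 genes (8.13%), so the share was near that of all promoters. The 2 genes were Socs3, with 1 match, and Bcl6, with 1 match at one start site and 3 at another (168, 122 and 88 bases before that start). Shown for each gene is a window around 1 match, at chr11:117969487-117969545 and chr16:23988937-23988995 on the minus strand, 154 and 118 bases before the start. Capitals mark the motif.
Socs3: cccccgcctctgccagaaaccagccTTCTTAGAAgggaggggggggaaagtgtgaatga
Bcl6: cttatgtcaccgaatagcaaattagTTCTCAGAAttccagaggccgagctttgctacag
Socs3 had the difference of 0.50 given above, and the repressor Bcl6 differed by -0.11 with a 95% interval from -0.57 to 0.36. A match of letters is not a measured binding site.

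The mean level of genes that mark the aged stem cell overlapped between the old groups. The mean over the 45 genes known to be higher in aged HSCs was 7.38 to 7.91 on old WT and 7.57 to 7.95 on old Lnk-/- arrays. On the young arrays it was 6.02 to 6.20 in WT and 6.18 to 6.36 in Lnk-/- cells. The median genotype difference of these genes in old cells was 0.055, and 27 of 45 lay above 0, against 49.9% of all genes. With 1 array left out the median ran from -0.034 (without WT replicate 2) to 0.17 (without Lnk-/- replicate 2), and it was 0.12, 0.16 and 0.10 without WT replicate 1, WT replicate 4 or Lnk-/- replicate 4. None passed the test and 5 had an unadjusted p under 0.05 by limma (11.1%, against 5.02% of all genes). Selp, the adhesion receptor P-selectin, read 9.72, 9.46, 9.61 and 9.75 on the WT arrays and 9.77, 9.62, 9.92 and 9.74 on the Lnk-/- arrays. The difference was 0.13 with an interval from -0.32 to 0.57. Its SD was 0.13 and 0.12 on old WT and Lnk-/- arrays, and 0.64 and 0.45 on young ones. The young spread enters that interval too. Vwf, the platelet adhesion protein, differed by 0.05 (interval -0.20 to 0.30), and the secreted chaperone Clu by 0.12. At 2 months Selp differed by 0.99 and Vwf by 0.51 (adjusted p = 0.19 and 0.23 by limma). Their interactions of genotype with age, -0.87 and -0.46, did not pass (adjusted p = 0.64 and 0.66 by limma). Of the 5 genes, Slamf1, which encodes the sort marker CD150, read 8.22, 8.30, 8.59 and 8.62 against 9.01, 8.69, 8.45 and 8.83, a difference of 0.31. Vldlr, a lipoprotein receptor, differed by 0.69, the oxysterol receptor Gpr183 by 0.60, Enpp5 by 0.29 and Zg16 by -0.45. The list of genes lower in aged HSCs had a mean of 6.31 to 6.46 on old WT and 6.39 to 6.51 on old Lnk-/- arrays. Its median difference was -0.048, with 9 of 21 above 0, and -0.078 to 0.027 with 1 array left out. Of the 21 genes 3 had an unadjusted p under 0.05 by limma (14.3%), all higher (2.76% of all genes), Socs2 and Sox4 among them.

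Aldh1a1, a retinaldehyde dehydrogenase long used as a stem cell marker, was the 1 gene of 20239 whose genotype difference itself differed between the ages (0.00494% called). On the old WT arrays it read 9.96, 10.08, 10.09 and 9.95, and on the old Lnk-/- arrays 10.01, 10.01, 10.02 and 10.05. The old groups lay at the same level, with a difference of 0.004 and an interval from -0.14 to 0.14. At 2 months it read 8.103, 8.107 and 8.202 in WT and 9.118, 9.314 and 9.004 in Lnk-/- cells, a difference of 1.01 (adjusted p = 8.57e-06 by limma). Of these Lnk-/- arrays, replicates 1 and 2 carried Xist and had a Y-linked mean of 3.06 and 3.00. The old difference minus the young one was -1.01 ± 0.10 with adjusted p = 0.00061. Without the arrays that carried Xist it was -0.84 with adjusted p = 0.28, and with the spread of each array as a covariate -0.85 with adjusted p = 0.12.

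The stem cell identity list had a median of 0.053 over 31 genes, and none passed the test. Of these genes 3 had an unadjusted p under 0.05 by limma (9.68%, against 5.02% of all genes). The transcription factors Mecom and Hlf differed by 0.13 and 0.08, the receptor Tek by 0.02 and the endothelial-type adhesion protein Esam by -0.17. Procr, the protein C receptor that marks dormant HSCs, read 9.08, 7.53, 9.02 and 9.36 on the WT arrays and 9.04, 8.49, 9.33 and 8.90 on the Lnk-/- arrays. WT replicate 2 was its lowest array, and the difference was 0.19, or -0.21 without that array. Gfi1b, a repressor needed for platelet and red cell formation, read 9.35, 9.74, 9.38 and 9.24 against 8.73, 9.05, 9.17 and 8.80. Its arrays did not overlap, and the difference was -0.49 with adjusted p = 0.57. Flt3, a receptor of lymphoid-primed progenitors that is lost with age, differed by 0.38 in old cells (5.06 to 5.36 against 5.31 to 5.88) and by -0.54 in young cells, and the interaction of 0.93 did not pass (adjusted p = 0.37). Sox4, a transcription factor of lymphoid progenitors, differed by 0.39 without overlap.

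No gene of the 4 lineage lists passed the test between the old groups. The list medians were -0.039 for 24 lymphoid genes, -0.024 for 29 myeloid genes, -0.10 for 30 megakaryocyte and platelet genes and -0.029 for 23 erythroid genes. At an unadjusted p under 0.05 by limma there were 2 (8.33%), 4 (13.8%), 1 (3.33%) and 0 of them, against 5.02% of all genes. With 1 array left out these medians ran from -0.065 to -0.011, from -0.054 to -0.009, from -0.19 to 0.036 and from -0.075 to 0.058. The lymphoid median came nearest to 0 without Lnk-/- replicate 2 and the myeloid one without Lnk-/- replicate 3, and the erythroid one was above 0 without WT replicate 1 or 2 or Lnk-/- replicate 4. The platelet chemokine Pf4 and the integrin Itga2b differed by -0.58 and -0.29, and both were highest on WT replicate 2 (10.55 and 9.18). The megakaryocyte median was 0.036 without that array. Gata1, the erythroid and megakaryocyte factor, read 7.27 on WT replicate 2 and 4.93 to 6.15 on the other 7 old arrays. In the myeloid list, Spi1, which encodes PU.1, read 7.51 to 7.62 on WT and 7.80 to 7.95 on Lnk-/- arrays, a difference of 0.27. The neutrophil protein S100a8 differed by -0.68 (4.74 to 5.80 against 4.44 to 4.63).

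All 33 measured mitosis genes lay below 0, with a median of -0.17, the lowest of the 36 lists, and none passed the test or an unadjusted p of 0.05 by limma. The list's mean level was 6.69, 7.41, 6.91 and 6.50 on the WT arrays and 6.81, 7.03, 6.16 and 6.77 on the Lnk-/- arrays. The extremes were WT replicate 2 and Lnk-/- replicate 3. Without the first the median was -0.014, and without the second -0.0017. The spindle checkpoint kinase Bub1 differed by -0.39 and Mki67, the proliferation antigen, by -0.22. DNA replication genes had a median of -0.11, with 5 of 39 above 0 and none at an unadjusted p under 0.05 by limma. That median was -0.026 without WT replicate 2 and -0.006 without Lnk-/- replicate 3.

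Interferon-response genes had a median of -0.12 with 9 of 45 above 0. None passed the test and 4 had an unadjusted p under 0.05 by limma (8.89%, against 5.02% of all genes). Gbp9, an interferon-induced GTPase, read 6.74, 6.21, 6.41 and 7.02 on the WT arrays and 5.96, 5.90, 6.31 and 6.18 on the Lnk-/- arrays, a difference of -0.51, and 0.62 at 2 months. The list's mean level was 7.18 to 7.43 on WT arrays, 7.03 to 7.07 on Lnk-/- replicates 1 to 3 and 7.48 on Lnk-/- replicate 4, and the median was -0.20 without that array. At 2 months the median was 0.31. In the inflammation list (36 genes, median 0.001) the interleukin-1 receptor Il1r1 read 6.05, 6.66, 5.77 and 5.83 against 7.64, 6.90, 6.66 and 6.85. WT replicate 2 lay just above the lowest mutant array, and the difference was 0.94 with adjusted p = 0.45. The adhesion ligand Icam1 differed by -0.35 without overlap.

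Stress and metabolism lists held a few large single differences and no call. The heat shock and protein folding list had a median of -0.12, with 5 of 28 measured genes above 0. Of the 28 genes 3 had an unadjusted p under 0.05 by limma (10.7%, against 5.02% of all genes), all lower (2.27% of all genes). The median ran from -0.17 to -0.058 over 24 alternatives. Hspa1a, an inducible heat shock protein, read 7.17, 7.19, 7.08 and 5.57 on the WT arrays and 4.23, 6.12, 4.28 and 5.11 on the Lnk-/- arrays. The groups overlapped through WT replicate 4, and the difference was -1.82 with adjusted p = 0.57. Its relatives Hsph1 and Hspa8 differed by -0.39 and -0.09. Genes of sterol handling differed in both directions, with Stard4 at -0.43 without overlap and the cholesterol exporter Abca1 at 0.49. Of 34 glycolysis and hypoxia genes 5 had an unadjusted p under 0.05 by limma (14.7%, against 5.02% of all genes), all higher (2.76% of all genes). Among them were Pgk1 (0.76) and Tpi1 (0.22). Pgk1 was dim and its groups overlapped, at 3.31 to 4.39 on WT and 4.19 to 5.37 on Lnk-/- arrays (adjusted p = 0.92 by limma). In the adhesion list the tetraspanin Cd53 read 7.61 to 7.82 on WT and 7.88 to 9.06 on Lnk-/- arrays, a difference of 0.91 with adjusted p = 0.86. Oxidative phosphorylation (45 genes) and ribosomal protein (17 genes) had medians of -0.010 and 0.008.

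Markers of other cell types that a marrow sort could hold were listed as well. Besides T and NK cells, the medians were 0.003 for macrophages, -0.003 for endothelial and stromal cells, -0.084 for mast cells and basophils and -0.049 for plasma and mature B cells, and no member was called. At an unadjusted p under 0.05 by limma there were 3 of 23 (13%), 1 of 23 (4.35%), 0 of 17 and 1 of 22 (4.55%) members, against 5.02% of all genes. Mean macrophage marker levels were 4.16 to 4.25 on WT and 4.19 to 4.25 on Lnk-/- arrays, and those of endothelial and stromal markers 4.45 to 4.57 and 4.52 to 4.60. For mast cells and basophils they were 4.295 to 4.468 and 4.254 to 4.370, and for plasma and mature B cells 4.831 to 4.887 and 4.703 to 4.871. Of the macrophage list, Adgre1 lay at 2.63 to 2.82 and C1qa at 3.43 to 3.63 on all 8 arrays. The lysosomal protein Cd68 lay at 6.39 to 7.12 with a difference of 0.36, and the protease Ctss differed by 0.41 without overlap. Of the endothelial list, Pecam1 lay at 6.97 to 7.60 (difference 0.22), Cldn5 at 4.93 to 6.67 (0.55) and Cdh5 at 2.98 to 4.45 (0.48, without overlap). Cdh5 read 4.45 on Lnk-/- replicate 4 and 3.22 to 3.45 on the other Lnk-/- arrays. With 1 array left out its difference was as low as 0.19. The B cell marker Ms4a1 lay at 2.49 to 3.02 and the basophil marker Mcpt8 at 2.595 to 3.094. The part of such cells in any result was not tested. Over all 36 lists 1 of 905 measured genes was called, which was Sh2b3, and the list medians ran from -0.17 to 0.084.

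**Figure D4:**
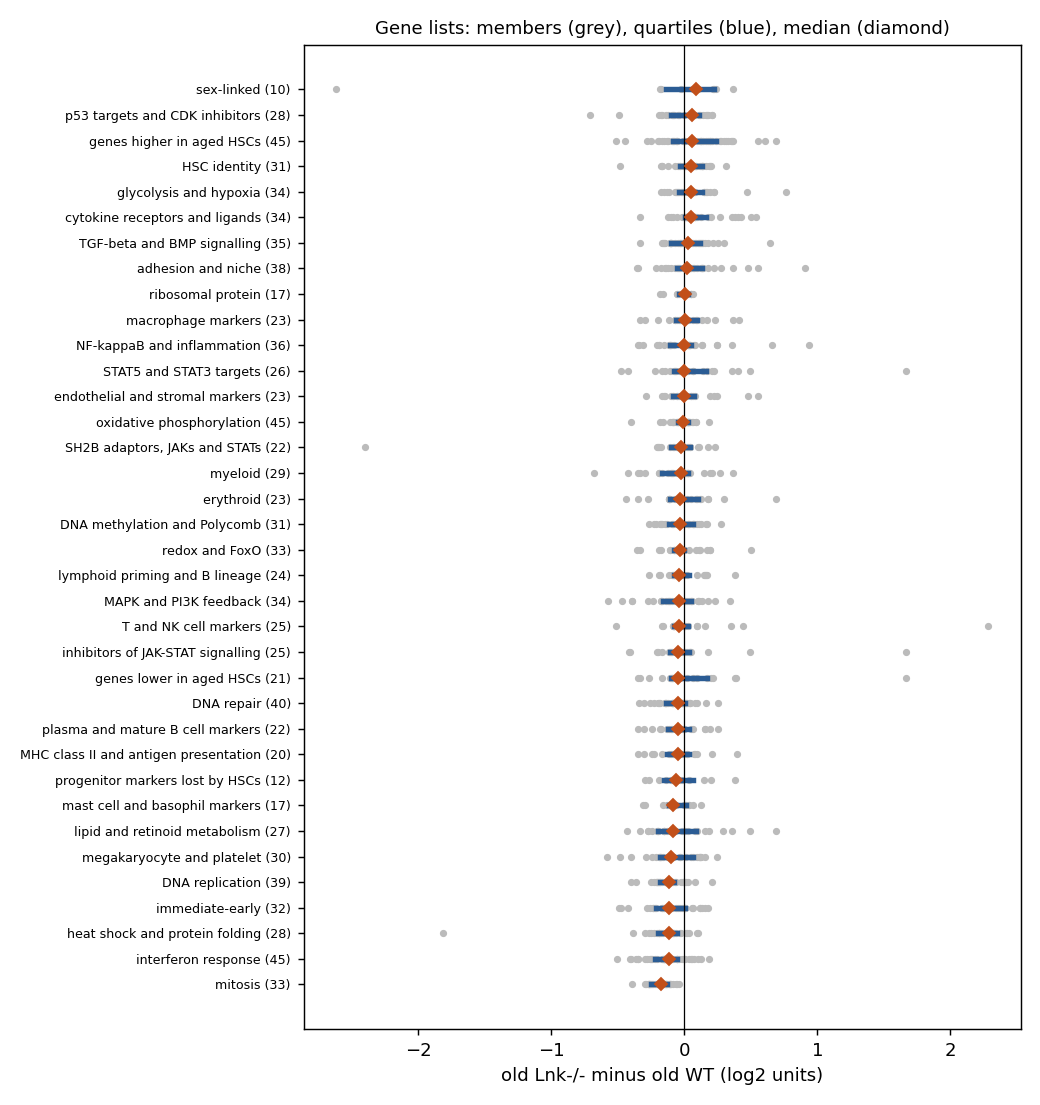
Difference between old Lnk-/- and old WT HSCs in log2 units for the measured genes of 36 lists (grey points, number of genes in brackets), with the quartiles (blue bar) and the median (orange diamond). The medians lie between -0.17 for mitosis and 0.084 for sex-linked genes, and the points farthest from 0 are Xist (-2.62), Sh2b3 (-2.40), Hspa1a (-1.82), Socs2 (1.67) and Trac (2.28).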

How the data were processed

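The arrays were Affymetrix Mouse Gene 1.0 ST, hybridised after NuGEN Pico amplification. The values used were log2 expression values as deposited by the authors, 1 per probe set and array, and per the submitters' processing notes they come from RMA in affy. That method corrects background, sets all arrays to common quantiles and summarises probes, which removes any global shift and compresses dim differences. Software versions and genome build are not given in the sources used here. All 20239 probe sets with 1 gene symbol are named by their gene ID, so each stands for 1 gene. How probes were assigned to genes is not otherwise stated.

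Named here were the 20239 probe sets with 1 symbol in the platform annotation (all matched RefSeq, GRCm38.p6), and the other 986 were left unnamed. All 14 arrays entered one linear model with a mean for each group (limma 3.58.1 in R 4.3.3, lmFit and eBayes with a trend), and the contrast was old Lnk-/- minus old WT. Tests were two-sided, with Benjamini-Hochberg adjustment over all 20239 genes and calls under 0.05. SE is limma's moderated error and intervals are 95%. Both rest on the spread within every group, young arrays included. Where that spread differs between the ages, they do not describe the old arrays alone. The code was tested on simulated data. Depth does not apply, and the number of arrays limits the precision.

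The 36 gene lists, the named genes and the alternatives were chosen with earlier results of these data known. Named were Sh2b3, called genes without overlap, the 20 of smallest p, up to 2 uncalled members of smallest p per list, fixed genes of the pathway and of HSC identity, and genes called for the interaction of genotype with age. Predicted genes, RIKEN clones, olfactory receptors, small RNAs and receptor segments were counted only, except Trac, a member of the T cell list. Further list members and young calls named in the text were picked by role, or after their values were seen. Lists were described by counts and medians with no set test. Ddx3y was not analysed here. Replicate numbers did not pair the arrays by the check used.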

Additional observations from a re-analysis of the deposited data

Results flagged for a closer look

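Aldh1a1 is listed because its genotype difference differed between the ages by a test of the difference itself. The old difference minus the young one was -1.005 log2 units (adjusted p = 0.00061 by limma over all genes), and all 3 young Lnk-/- arrays lay above all 3 young WT arrays while the old groups overlapped.

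The other values are single arrays far from the other 3 of their group, by Dixon's criterion at 95%. It was met in 12 of 266 groups of 4 arrays (4.51%), and chance gives about 1 in 20.

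Among old WT arrays, Hspa1a read 5.572 on replicate 4 against 7.078 to 7.191 on the others. Ddx3x read 8.81 on the same array against 9.325 to 9.368. Spi1 read 7.51 on replicate 1 against 7.607 to 7.62. Abca1 read 5.589 on replicate 3 against 5.93 to 5.968.

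Among old Lnk-/- arrays, Dnajc3 read 8.956 on replicate 1 against 8.663 to 8.684. On replicate 2, the tight junction gene Cldn5 read 5.646 against 6.621 to 6.673 and the cell cycle inhibitor Cdkn1a read 5.036 against 5.514 to 5.552. The replication gene Cdc45 read 6.681 on replicate 3 against 7.189 to 7.273. Of the list means, DNA repair was 6.255 on replicate 3 against 6.42 to 6.454, and the inhibitors of JAK-STAT signalling were 6.868 on replicate 1 against 6.955 to 6.963. On replicate 4 the interferon response mean was 7.48 against 7.029 to 7.074, and the lipid and retinoid mean was 6.605 against 6.532 to 6.539.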

How the results depend on the processing

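Sh2b3 was called under all 24 alternatives (-2.49 to -2.31, adjusted p 2.9e-07 to 0.000156 by limma), Itpr2 under 23 of 24, Pcdh7 under 12 of 24 and P2ry10 under 4 of 23, and none of the 4 changed sign. The count of 4 calls was 2 without a trend in eBayes and ran from 2 to 8 when each array was left out in turn, with 8 without WT replicate 1 (3 of the 4 kept). It was 2 without old WT replicate 3, without old Lnk-/- replicate 2 or 4, without any 1 of the young WT replicates, or without young Lnk-/- replicate 1. The count of higher genes, 2, was 1 with only the 8 old arrays, without a trend, with probe sets at a mean of at least 5, with all probe sets, with array weights, after dropping the arrays with Xist, and with the spread of each array or the Y-linked mean as a covariate, and 1 to 6 with arrays left out. The count of lower genes, 2, was 1 without a trend and 1 to 2 with arrays left out. The share at an unadjusted p under 0.05 ran from 3.86% to 6.45%.

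The young count of 12 was 6 after quantile normalization, 37 with the filter on dim probe sets, 5 without the arrays with Xist, 2 with the array spread as a covariate, 25 with array weights, and 4 to 37 with arrays left out (37 without young WT replicate 2, 36 without young Lnk-/- replicate 3, 7 without young WT replicate 1, 4 and 5 without young Lnk-/- replicates 1 and 2). The count for the interaction of genotype with age, 1, was 0 by limma with the array spread as a covariate (886 genes at an unadjusted p under 0.05) and 0 without the arrays with Xist (1014 genes), 3 with the Y-linked mean, and 1 to 6 with arrays left out (6 without young Lnk-/- replicate 3). The cause was not tested. With 4 against 4 arrays the median gene's 95% interval reached 0.22 log2 units to each side, which limits what could be detected.

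Same-numbered old arrays had deviations that correlated at -0.033, 0.266, 0.012 and 0.008, and 2 of 8 correlated best with their own number, so the numbers were not taken as pairs. With the replicate block 4 genes were called, which were Sh2b3, Itpr2, Pcdh7 and Trac. Under the block Sh2b3 differed by -2.40, P2ry10 had adjusted p = 0.0995 and Trac 0.0084 by limma.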
